A study of Mus musculus with 4 samples.

Results

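S100 proteins are small calcium sensors with a pair of EF-hand motifs, and they act mostly as dimers. Calcium binding exposes a surface through which each dimer holds a partner protein, such as an annexin, non-muscle myosin or a subunit of the NADPH oxidase. In mice most of the genes lie in clusters on chromosome 3, and S100a8 and S100a9, which together form calprotectin, are among the most abundant transcripts of neutrophils. The genes described here were the 8 rows of the expression matrices named S100a1, S100a4, S100a6, S100a8, S100a9, S100a10, S100a11 and S100a13, out of 32285 genes. They were followed across neutrophils, other myeloid cells, lymphoid cells and tumor cells.

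The cells came from Dalton's lymphoma ascites (DLA) tumors grown in mice by transplantation of tumor cells and digested to single cells, with lysis of red cells. Droplet libraries read transcripts at the 3′ end. Control 1 and Control 2 were labelled untreated, while the supplement speaks of vehicle controls. Treated 1 and Treated 2 came from mice given SP11, an HSP90 inhibitor, by mouth at 30 mg/kg for 17 days. The methods name Swiss albino mice, injected with DLA cells into the peritoneum, while no age, sex or strain was given in the labels. All tumors carried the same transplanted line, and the labels name no batch.

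Cell barcodes were kept where they had at least 200 detected genes and at most 10% mitochondrial UMIs (unique molecular identifiers, 1 for each captured transcript). These were 916 and 566 barcodes of the controls and 1831 and 1091 of the SP11 libraries, with 9574906 to 13024964 UMIs per library. Each was placed in a class by the UMIs of marker genes, none of them an S100 gene. This gave 3, 2, 7 and 39 neutrophils with the controls first, and 21, 13, 90 and 96 myeloid cells (monocytes, macrophages and dendritic cells). It also gave 9, 1, 161 and 217 lymphoid cells and 857, 534, 1284 and 581 tumor cells. Values in sets of 4 below keep this order of libraries, with replicate 1 before replicate 2 in each group. Neutrophils were shallow, with medians of 567 to 1576 UMIs per cell against 8791 to 19792 in tumor cells. Barcodes rich in hemoglobin (4, 6, 82 and 62) and barcodes without a clear class (22, 10, 207 and 96) were in no class. Levels below are counts per 1000000 UMIs of a class sum (CPM) and are compared between classes, never between genes.

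The labels call the cells lymphoma. In the tumor class the epithelial gene Epcam stood at 227, 222, 221 and 194 CPM, and the T-cell receptor chain Cd3e at 0.104, 0, 0.814 and 0.50 CPM. The whole list of 24 lymphoid markers stood at 17.1, 16.6, 73.6 and 42.3 CPM in it, with 11, 7, 22 and 21 of the genes holding a UMI, against 12650 and 12098 CPM in lymphoid cells of the treated libraries. The class was chosen by keratins and other epithelial genes, and barcodes with many lymphoid UMIs were kept out of it by the same rule. It is described here as keratin-positive tumor cells. The neutrophil class held genes of neutrophil granules that were not used to choose it. Of 11 such genes 6 had enough counts to test, and 5 of these were higher than in tumor cells, with log2 fold changes from 8.38 (Ifitm6) to 12.96 (Ngp). Myeloid cells also lay above tumor cells for Chil3 (8.17), Ifitm6 (7.35), Wfdc21 (5.78) and Lcn2 (3.43), but not for Camp or Ngp. Against myeloid cells, neutrophils had 3.21 (Wfdc21) to 14.20 (Ngp) for Wfdc21, Lcn2, Camp and Ngp. They had 1.03 for Ifitm6 and -2.26 for Chil3, which thus did not set neutrophils apart from myeloid cells. Libraries shared barcode sequences, 54 to 215 kept barcodes for each pair of libraries. The UMI totals of the shared barcodes correlated at -0.0982 to 0.215 on a log scale between the libraries of a pair, and results that change without these barcodes are named below.

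All 8 genes lay on chromosome 3 of the mouse build GRCm38 (mm10) in the GENCODE annotation. S100a1 (90511034 to 90514392, minus strand) and S100a13 (90514435 to 90524581, plus strand) were head to head with 42 bases between them. S100a4 (90603771 to 90606045), S100a6 (90612882 to 90624181) and S100a8 (90668978 to 90670035) followed on the plus strand and S100a9 (90692632 to 90695721) on the minus strand. S100a11 (93520488 to 93526287) and S100a10 (93555080 to 93564643), both on the plus strand, were 2824766 bases farther on. RefSeq promoter windows on GRCm38.p6 were at hand for 7 of the 8 genes, and the 250 bases before the RefSeq start were searched on both strands. The letters searched were TTGCNNAA, which C/EBP factors bind, GAGGAA, the core of the PU.1 motif, and TGANTCA, which AP-1 factors bind. The fourth motif was TATAAA, which sits before many gene starts. In this order the letters were in 9.56%, 23.3%, 6.75% and 12.4% of the same windows of all 32851 promoters. The windows of S100a8, S100a9 and S100a4 are shown, since these genes separated the classes and moved with SP11, with matches in capitals.
S100a8, chr3:90668821-90669070, plus strand: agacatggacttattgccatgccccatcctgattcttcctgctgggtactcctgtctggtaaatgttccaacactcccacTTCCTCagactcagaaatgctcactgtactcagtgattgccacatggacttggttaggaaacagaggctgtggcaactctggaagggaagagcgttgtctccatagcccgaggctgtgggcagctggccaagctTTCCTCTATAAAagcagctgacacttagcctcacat
S100a9, chr3:90695722-90695971, minus strand: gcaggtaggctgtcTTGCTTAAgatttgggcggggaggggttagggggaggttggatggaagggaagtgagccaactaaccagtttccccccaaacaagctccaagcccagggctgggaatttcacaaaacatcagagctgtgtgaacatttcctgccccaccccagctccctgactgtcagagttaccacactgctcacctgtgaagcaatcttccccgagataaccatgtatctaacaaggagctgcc
S100a4, chr3:90603520-90603769, plus strand: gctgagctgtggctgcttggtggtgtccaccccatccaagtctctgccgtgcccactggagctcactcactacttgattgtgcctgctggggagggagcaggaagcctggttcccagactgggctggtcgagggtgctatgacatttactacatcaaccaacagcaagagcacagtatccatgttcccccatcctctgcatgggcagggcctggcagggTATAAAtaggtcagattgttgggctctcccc
The S100a8 window held GAGGAA on the minus strand at positions -170 to -165 and -36 to -31 from the start, the second directly before TATAAA at -30 to -25. The S100a9 window held TTGCNNAA at -236 to -229 and none of the other motifs, and the S100a4 window held TATAAA at -31 to -26. The genes of calprotectin thus shared none of these motifs in their windows. In the S100a11 window GAGGAA was found once and TGAGTCA at -136 to -130 and again at -38 to -32, while none of the 4 motifs was found for S100a1, S100a6 or S100a13.

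S100a1 and S100a13 start back to back, so the stretch between their RefSeq starts belongs to both. It is shown because this pair had unlike levels in lymphoid cells (below), and it held 3 CpG sites and 58.7% G or C in 104 bases.
Between S100a1 and S100a13, chr3:90514331-90514434, plus strand: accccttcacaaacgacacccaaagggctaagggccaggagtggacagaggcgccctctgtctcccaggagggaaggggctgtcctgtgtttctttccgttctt

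Neutrophils against tumor cells was the comparison for which the classes were drawn up. S100a8 and S100a9 were far higher in neutrophils, S100a11 was higher, and S100a10 and S100a6 were lower, while S100a1, S100a4 and S100a13 did not pass the test. S100a8 stood at 33156, 57107, 36335 and 51361 CPM in neutrophils of the 4 libraries, and at 33.9, 40.9, 65.9 and 54.9 CPM in tumor cells of the same libraries. S100a9 stood at 58615, 55838, 25101 and 61021 CPM in neutrophils and at 2.8, 5.79, 55.5 and 44.7 CPM in tumor cells. The classes did not overlap for either gene in any library. Together both genes made up 91770, 112944, 61436 and 112382 CPM of neutrophil UMIs, and every neutrophil of every library kept at least 1 UMI of each gene after thinning to 500 UMIs per cell.

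**Figure D1:**
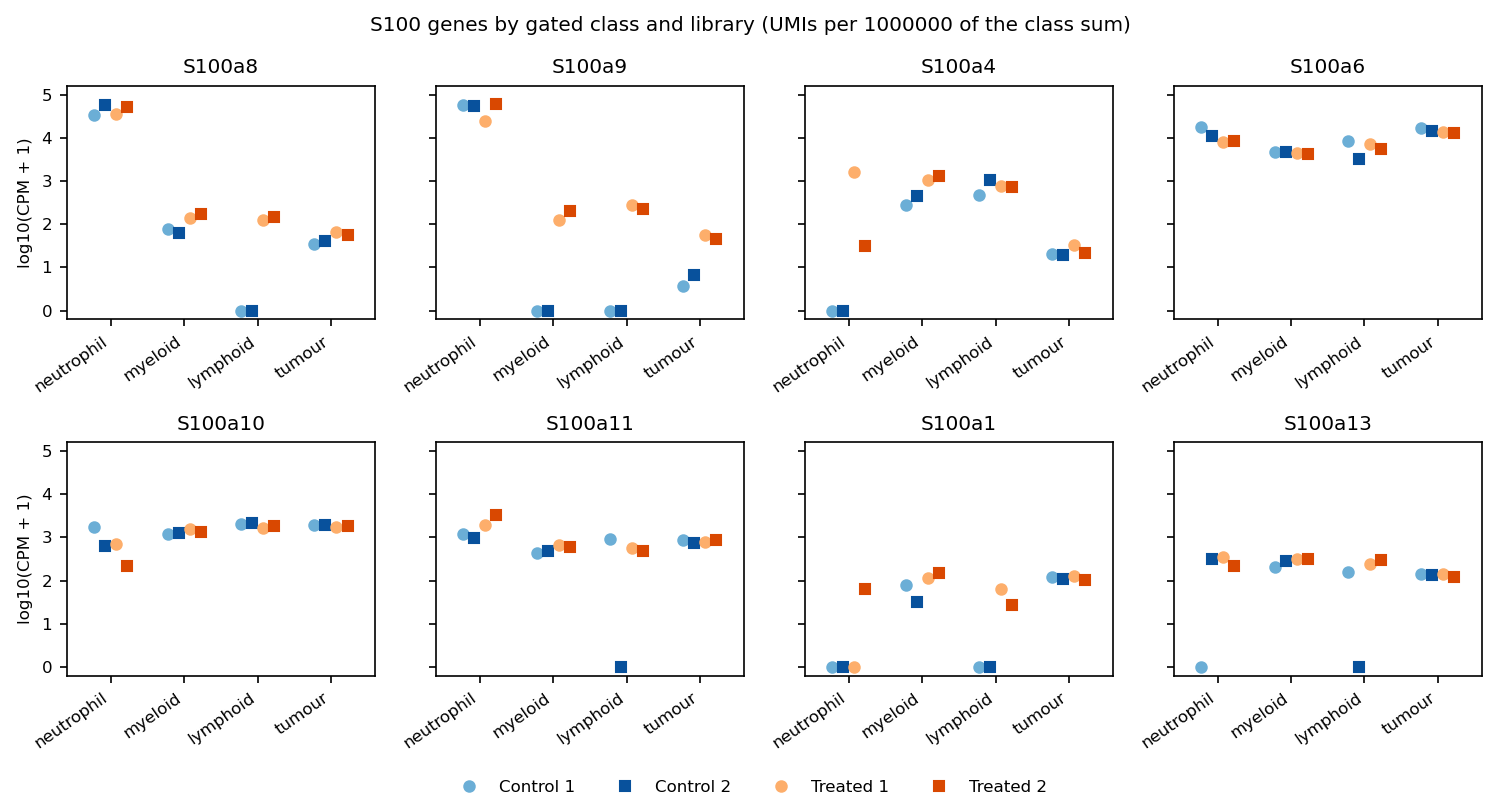
Level of each S100 gene as log10(CPM + 1), UMIs per 1000000 of the class sum, in neutrophils, myeloid, lymphoid and tumor cells (horizontal axis), with 1 point per library and no averaging. S100a8 and S100a9 lie above 4 in neutrophils of every library, S100a4 lies lower in tumor cells than in myeloid or lymphoid cells, and points at 0 are sums without a UMI.

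The edgeR quasi-likelihood test put S100a9 869-fold higher in neutrophils (9.76 on the log2 scale, SE 0.26, adjusted p 5.19e-290) and S100a8 572-fold higher (9.16, SE 0.27, adjusted p 2.55e-249). S100a11, a ligand of annexin A1, was higher by 1.38 (SE 0.27, adjusted p 4.91e-06). S100a10, the light chain of the annexin A2 tetramer, was lower by 3.71 on the log2 scale (-3.71, SE 0.41, adjusted p 5.25e-18). S100a6, or calcyclin, which binds the protein CacyBP, had -1.21 (SE 0.20, adjusted p 3.65e-08), and S100a1 (-1.36), S100a4 (-0.50) and S100a13 (0.14) did not pass. This was 5 of 8 members called, against 26.8% of all 6418 genes tested.

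Neutrophils reached the minimum of 10 cells in Treated 2 alone. The test therefore used 1 neutrophil sum, whose spread is assumed to be that of the other classes, and the members' values in the other libraries are descriptions. With every library's neutrophil sum in the fit, S100a8, S100a9, S100a6 and S100a10 kept their calls and S100a11 lost its own, and S100a4 reversed to 2.66 (adjusted p 0.000668). Of the 10 neutrophil UMIs of S100a4, 9 lay in Treated 1.

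The median log2 fold change of all genes was -1.49 in this comparison, so S100a6 at -1.21 lay above it although its call was lower. The split of calls moved with the scaling, from 762 higher and 959 lower genes to 893 and 588 with library sizes alone and to 1018 and 199 with DESeq2. Under these scalings the medians were -0.99 and -0.21 and S100a6 had -0.61 (adjusted p 0.0632) and -0.52 (adjusted p 0.18), neither called. S100a8, S100a9 and S100a10 were called in the same direction in all 18 alternatives, at 7.75 to 9.77, 8.07 to 10.84 and -4.83 to -2.74.

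The level of S100a6 in neutrophils was 17762, 11104, 7899 and 8659 CPM against 17141, 14124, 14020 and 13049 CPM in tumor cells, with Control 1 slightly above and the other libraries below. In S100a11 the neutrophil sums were 1184, 952, 1931 and 3345 CPM and the tumor sums 858, 730, 769 and 876 CPM. Neutrophils were higher in each library, but the sums of Control 1 and Control 2 rest on 2 and 3 UMIs and the fitted value rests on 107 UMIs of Treated 2. After thinning, 84.6% of the 39 neutrophils of Treated 2 had an S100a11 UMI (exact 95% interval 69.5 to 94.1) against 32.9% of its tumor cells. S100a10 stood at 1776, 635, 702 and 219 CPM in neutrophils (3, 2, 4 and 7 UMIs) and at 1897, 1914, 1693 and 1838 CPM in tumor cells. S100a10 was thus lower in neutrophils of every library, by little in Control 1.

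**Figure D2:**
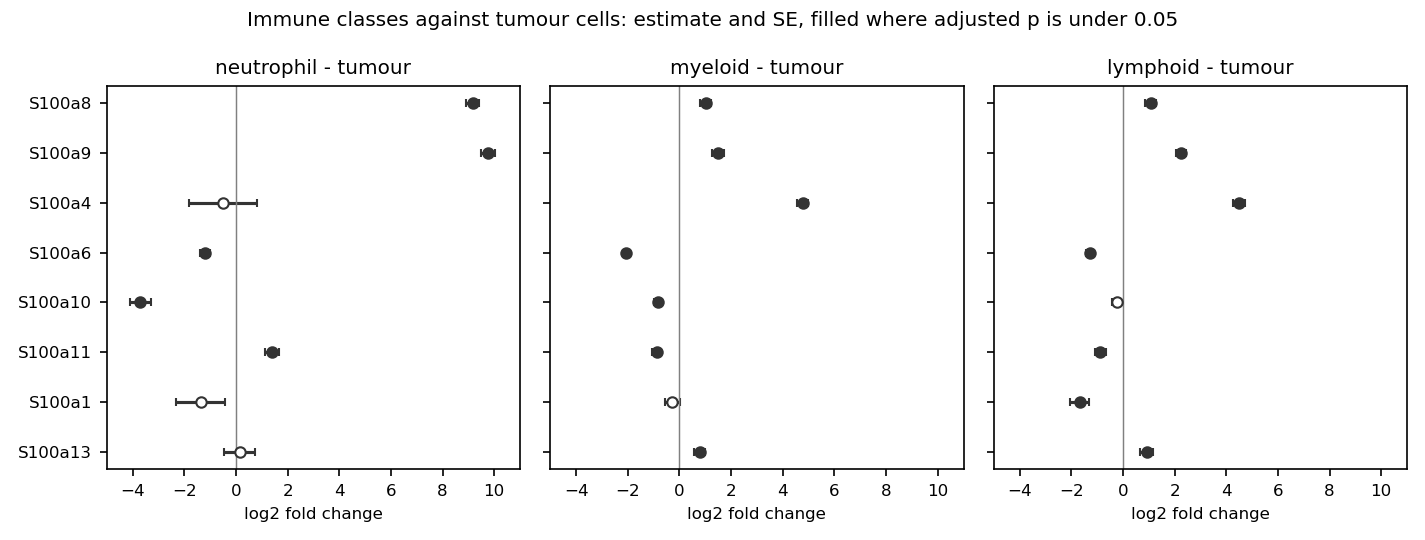
Log2 fold change of each S100 gene with its standard error (horizontal axis) in neutrophils, myeloid and lymphoid cells against tumor cells, from edgeR's quasi-likelihood test, with filled points where the adjusted p is under 0.05. S100a8 and S100a9 reach 9.16 and 9.76 in neutrophils, and S100a4 reaches 4.77 in myeloid and 4.50 in lymphoid cells.

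In myeloid cells S100a4 set the class apart from tumor cells, and S100a6 was the member furthest below. S100a4, also called metastasin, binds non-muscle myosin IIA and takes part in cell motility. It stood at 284, 443, 1085 and 1291 CPM in myeloid cells and at 19.0, 18.8, 32.3 and 20.3 CPM in tumor cells, without overlap, and its log2 fold change was 4.77 (SE 0.21, adjusted p 1.09e-106). S100a6 stood at 4726, 4617, 4463 and 4312 CPM, which was 27.6% to 33.0% of the tumor level in the same library and gave -2.08 (SE 0.11, adjusted p 9.95e-76).

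Of the 8 members 7 were called in myeloid against tumor cells, 4 higher and 3 lower, where 60.5% of all genes were called. S100a9 (1.5), S100a8 (1.02) and S100a13 (0.79, SE 0.21, adjusted p 0.000519) were higher, S100a11 (-0.88) and S100a10 (-0.83) were lower, and S100a1 had -0.27 (adjusted p 0.404). Without Treated 2 the calls of S100a8, S100a9 and S100a13 were lost and 4 members remained called. In the controls the myeloid sums held 3 and 2 UMIs of S100a8 and none of S100a9. In Treated 1 and Treated 2 S100a9 stood at 123 and 198 CPM, below lymphoid cells, which should lack it (284 and 224 CPM). S100a8 stood at 141 and 168 CPM there, against 124 and 148 CPM in lymphoid cells. No expression of either gene by myeloid cells is therefore read from these values. S100a13, which takes part in the release of fibroblast growth factor 1, stood at 207, 285, 309 and 310 CPM against 138, 136, 143 and 117 CPM in tumor cells.

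Lymphoid cells reached 10 cells in Treated 1 and Treated 2 only. S100a4 was again the member furthest above the tumor cells, at 772 and 729 CPM and 4.50 on the log2 scale (SE 0.23, adjusted p 3.68e-79), and S100a6 was lower, at 7381 and 5440 CPM and -1.28 (SE 0.15, adjusted p 4.08e-17). In this comparison 7 of 8 members were called, where 53.6% of all genes were. S100a9 (2.24), S100a8 (1.08) and S100a13 (0.92) were higher, and S100a1 (-1.67, SE 0.38, adjusted p 3.65e-05) and S100a11 (-0.87) were lower. S100a10 had -0.24 (adjusted p 0.264). Lymphoid cells should lack calprotectin, so no expression in them is read from S100a8 (124 and 148 CPM) or S100a9, and neutrophil markers were present with both, the list of 11 standing at 117 and 88.5 CPM in lymphoid cells of Treated 1 and Treated 2 against 64.1 and 53.8 CPM in tumor cells. Their part in these values was not tested. S100a13 at 235 and 301 CPM and S100a1 at 61.8 and 26.6 CPM thus lay on opposite sides of their tumor levels, although they start 104 bases apart. Without Treated 2, 3 members remained called, the lost ones being S100a1, S100a8, S100a11 and S100a13. The split of all calls was 1605 higher and 1835 lower, and 1466 and 904 with DESeq2.

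For neutrophils against myeloid cells 6 members were called, where 6.61% of all genes were. S100a9 (8.27, SE 0.25), S100a8 (8.14, SE 0.25), S100a11 (2.26, SE 0.27) and S100a6 (0.87, SE 0.19, adjusted p 0.000112) were higher in neutrophils, and S100a4 (-5.27, SE 0.76, adjusted p 5.51e-10) and S100a10 (-2.88, SE 0.42, adjusted p 1.13e-09) were lower, while S100a1 (-1.09) and S100a13 (-0.65) did not pass. S100a4 had 1 UMI in 39 neutrophils of Treated 2 and 300 in 96 myeloid cells. S100a6 lost its call in 7 of 18 alternatives, among them the fit without the barcodes shared between libraries. It was called lower, at -0.63 (adjusted p 0.00406), when barcodes had to hold at least 500 genes. The median of all genes was -0.84, and the split of calls went from 144 higher and 280 lower to 152 and 70 with DESeq2.

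By its level in Treated 2, the library in which every class could be tested, S100a4 ran from myeloid cells (1291 CPM) through lymphoid cells (729 CPM) and neutrophils (31.3 CPM) to tumor cells (20.3 CPM). The last step did not pass the test, and lymphoid cells were not tested against myeloid cells or neutrophils. The order of S100a6 was tumor cells (13049 CPM), neutrophils (8659 CPM), lymphoid cells (5440 CPM) and myeloid cells (4312 CPM). In S100a9 neutrophils (61021 CPM) were followed by lymphoid (224 CPM), myeloid (198 CPM) and tumor cells (44.7 CPM). S100a10 ran from tumor (1838 CPM) and lymphoid cells (1824 CPM), which did not differ by the test, to myeloid cells (1338 CPM) and neutrophils (219 CPM). In neutrophils S100a1 and S100a13 had 2 and 7 UMIs in this library, which give no order.

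Among lymphoid cells S100a6 differed between finer classes, and so did the UMIs of S100a9, from which no expression is read (above). Of the lymphoid cells of Treated 1 and Treated 2, 148 and 143 were B cells and 13 and 74 were T or NK cells. S100a6 stood at 7676 and 6189 CPM in B cells and at 2569 and 2866 CPM in T or NK cells, without overlap in these libraries, and differed by 2.13 on the log2 scale (SE 0.46, adjusted p 0.000195). The 8 T or NK cells of Control 1, too few for the test, stood at 7676 CPM on 44 UMIs, level with the B cells of Treated 1 and above those of Treated 2. With sums of at least 1 cell the difference was 1.35 (adjusted p 0.045). S100a9 stood at 302 and 263 CPM in B cells and at 0 (none of 9341 UMIs) and 91.6 CPM in T or NK cells, and had 2.43 (SE 0.71, adjusted p 0.0153). These were the 2 members called, against 5.31% of all genes, while S100a8 (2.33, adjusted p 0.0848), S100a1 (2.42), S100a4 (0.78), S100a10 (0.64), S100a11 (0.60) and S100a13 (-0.40) did not pass. The split of all calls was 184 higher and 94 lower, and 109 and 189 with library sizes alone, where S100a6 had 1.32. S100a6 was called in all 18 alternatives and S100a9 in 13, with calls of S100a9 lost among others without Treated 2 (0.34 to 13.2 over the alternatives).

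Keratins of the tumor cells were found in the immune classes too. Krt8 and Krt18 together stood at 8.99% and 6.82% of their tumor level in B cells of Treated 1 and Treated 2. They stood at 8.81% and 14.5% in T or NK cells of these libraries and at 4.91% to 10.4% in myeloid cells. In neutrophils they were highest, at 37.6%, 91.6%, 19.3% and 12.5% on 3, 7, 4 and 13 UMIs. A called doublet was 1 of the 3 neutrophils of Control 1. Both keratins were among the markers that chose the tumor cells. The rule itself thus limited their UMIs in the other classes, and nothing about S100a6 is read from them. The part that tumor RNA has in the S100a6 level of the immune classes was not tested. For S100a9, Retnlg, a neutrophil gene that was used to choose the neutrophils, stood at 49.4 and 64.9 CPM in lymphoid cells, and its part was not tested. Single B cells held 14 of the 46 S100a9 UMIs of B cells in Treated 1 and 19 of the 69 in Treated 2.

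Monocyte-like cells (8, 9, 48 and 77) and macrophage-like cells (12, 3, 34 and 16) had no member called, where 0.268% of all genes were. At an unadjusted p under 0.05 edgeR had 2 members, S100a13 with 0.87 (p 0.0391) and S100a4 with 0.78 (p 0.0184), and DESeq2 likewise called none after adjustment. The others had 0.69 (S100a11), 0.33 (S100a10), 0.23 (S100a8), 0.09 (S100a6), 0.05 (S100a1) and -0.40 (S100a9). S100a4 stood at 518, 582, 1341 and 1365 CPM in monocyte-like cells and at 101, 359, 874 and 1120 CPM in macrophage-like cells. It was higher in the monocyte-like cells of each library, but the ranges of both classes overlapped. The macrophage-like sums of Control 1 and Control 2 rest on 2 and 3 UMIs of S100a4.

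Within tumor cells the members varied with the cell cycle. Tumor cells of each library were ranked by the share of their UMIs on 16 mitotic genes, and the top tertile was compared with the bottom tertile of the same library. All 6 members that were called were lower in the mitotic-high cells, where 23.9% of all genes were called, and S100a4 (-0.05) and S100a9 (0.20) were not called. The differences were small, with S100a8 at -0.40 (SE 0.11, adjusted p 0.00625), S100a1 at -0.33 (SE 0.06), S100a11 at -0.29 (SE 0.03), S100a13 at -0.28 (SE 0.06), S100a6 at -0.19 (SE 0.02, adjusted p 1.93e-09) and S100a10 at -0.18 (SE 0.03).

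In the sums themselves S100a6 stood at 16661, 13259, 13526 and 12636 CPM in mitotic-high cells and at 17846, 14925, 14670 and 13484 CPM in mitotic-low cells, lower in each of the 4 libraries. S100a11 stood at 835, 673, 719 and 848 CPM against 915, 823, 853 and 969 CPM, and S100a1 at 109, 98.0, 114 and 100.03 CPM against 135, 127, 140 and 104 CPM. Each was lower in the mitotic-high cells of every library, by least in Treated 2 for S100a1. S100a8 was uneven, at 27.7, 38.6, 45.8 and 58.3 CPM against 45.2, 38.9, 80.2 and 49.8 CPM, and its call was lost without Treated 1 (-0.15), without Control 1 (-0.32), with DESeq2 (-0.41) and without the barcodes shared between libraries (-0.26). Library sizes alone turned the split of all calls from 1148 higher and 1300 lower to 1664 and 800, and S100a6 then had -0.12 and kept its call. S100a1, S100a6, S100a10, S100a11 and S100a13 were called lower in all 17 alternatives.

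Other S100 genes were also counted, 8 of them as a list. S100a2, which was outside the list and is named after its values were seen, stood at 28.4, 44.2, 25.2 and 29.0 CPM in tumor cells, with at most 1 UMI in each neutrophil, myeloid or lymphoid sum. Of the 8 genes on the list beside the members, 3 could be tested among tumor cells, and S100a7a (-1.37, SE 0.15, adjusted p 1.96e-09) and S100a14 (-1.02, SE 0.20, adjusted p 9.87e-05) were lower in mitotic-high cells. S100a7a stood at 9.69, 7.72, 10.2 and 6.70 CPM against 21.7, 19.3, 18.9 and 24.4 CPM, without overlap. S100a5 was higher in lymphoid than in tumor cells on 7 and 5 UMIs in Treated 1 and Treated 2 (43.2 and 14.8 CPM), and 0.163 and 0.0834 CPM in tumor cells of these libraries.

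The study set SP11-treated against control tumors, and among tumor cells S100a9 was the member that rose. It had 2.8 and 5.79 CPM in control libraries and reached 55.5 and 44.7 CPM with SP11, without overlap, on 27, 55, 682 and 536 UMIs. The log2 fold change was 3.43 (SE 0.23, adjusted p 1.9e-07), a fold of 10.8, and S100a9 was the 1 member called of 8, where 2.1% of all genes were. S100a8 stood at 33.9 and 40.9 CPM in the controls and at 65.9 and 54.9 CPM in the treated libraries, also without overlap, and had 0.57 (SE 0.15, adjusted p 0.0533). The other 6 members had 0.36 (S100a4), -0.08 (S100a11), -0.12 (S100a1), -0.20 (S100a13), -0.24 (S100a10) and -0.33 (S100a6), with adjusted p from 0.383 to 0.85, and of these S100a4 was called without Treated 2 (0.70). S100a6 stood at 17141 and 14124 CPM in the controls and at 14020 and 13049 CPM in the treated libraries.

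**Figure D3:**
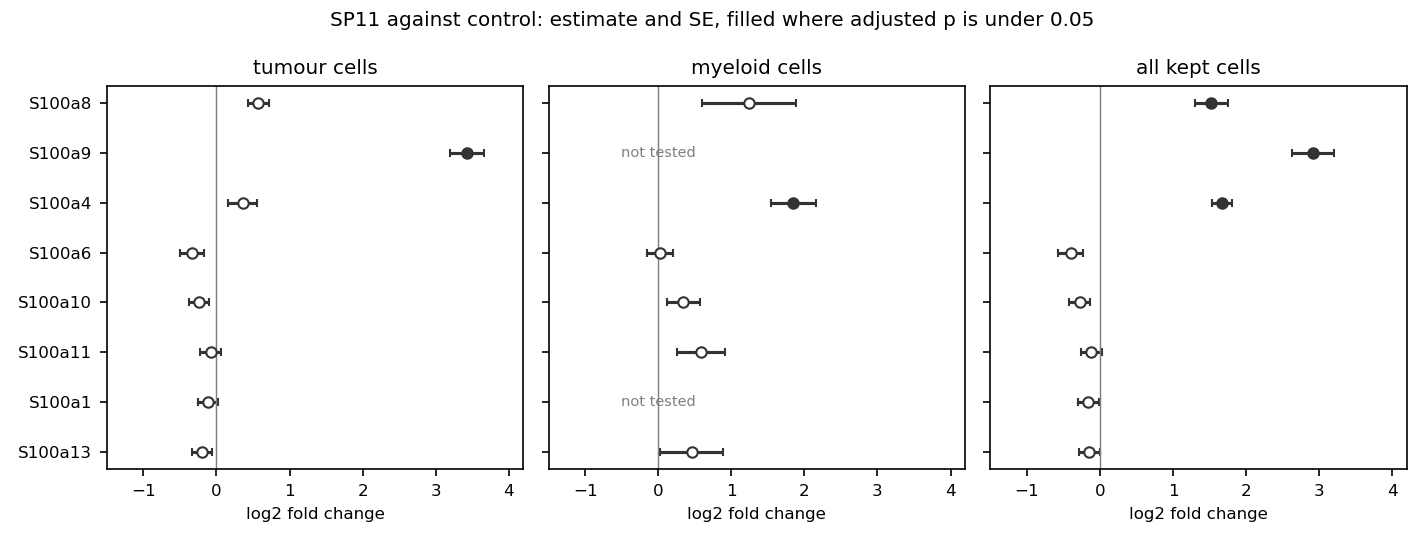
Log2 fold change of each S100 gene with its standard error (horizontal axis) for SP11 against control, 2 libraries each, in tumor cells, myeloid cells and all kept cells, with filled points where the adjusted p of edgeR's test is under 0.05. S100a9 reaches 3.43 in tumor cells, S100a4 reaches 1.85 in myeloid cells, and S100a1 and S100a9 had too few counts for the test in myeloid cells.

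S100a9 was called in all 18 alternatives, at 2.88 to 5.06. Without the 10% of tumor cells of each library that held the largest share of immune marker UMIs it had 3.22 (SE 0.28, adjusted p 4.02e-08), and without the barcodes shared between libraries 3.05 (SE 0.24, adjusted p 1.98e-06). In the former alternative S100a8 had 0.31 (adjusted p 0.406). S100a8 passed the test without Treated 2 (0.75, adjusted p 0.000387), without Control 2 (0.69), with library sizes alone (0.69), with a stricter marker minimum of 5 UMIs (0.57) and with the replicate number as a block (0.56, adjusted p 3.49e-05). The split of all calls was 183 higher and 60 lower, 370 and 57 with library sizes alone, and 84 and 45 with DESeq2.

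Genes of other cells moved with S100a9 in the tumor sums. Retnlg stood at 0.311 and 0.421 CPM in the controls and at 13.8 and 7.67 CPM in the treated libraries, and Csf3r, the G-CSF receptor of neutrophils, at 0.104, 0.211, 3.26 and 1.83 CPM. The whole neutrophil marker list stood at 33.6 and 33.4 CPM in the controls (8 and 6 of 11 genes with a UMI) and at 64.1 and 53.8 CPM in the treated libraries (10 and 10 of 11), of which Ly6g alone was 31.4, 30.3, 34.9 and 33.6 CPM. Of its defining markers Mmp8 was at 0 in all libraries but Treated 2, and the granule gene Ngp had no UMI outside Treated 2. The pan-leukocyte gene Ptprc (0.621, 0.211, 7.65 and 4.50 CPM), the B-cell gene Cd79a (0.725, 1.05, 24.9 and 11.6 CPM) and hemoglobin (0.0267%, 0.0178%, 1.03% and 0.466% of UMIs) were higher in the treated libraries too. The part of these in the rise of S100a9 was not tested.

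**Figure D4:**
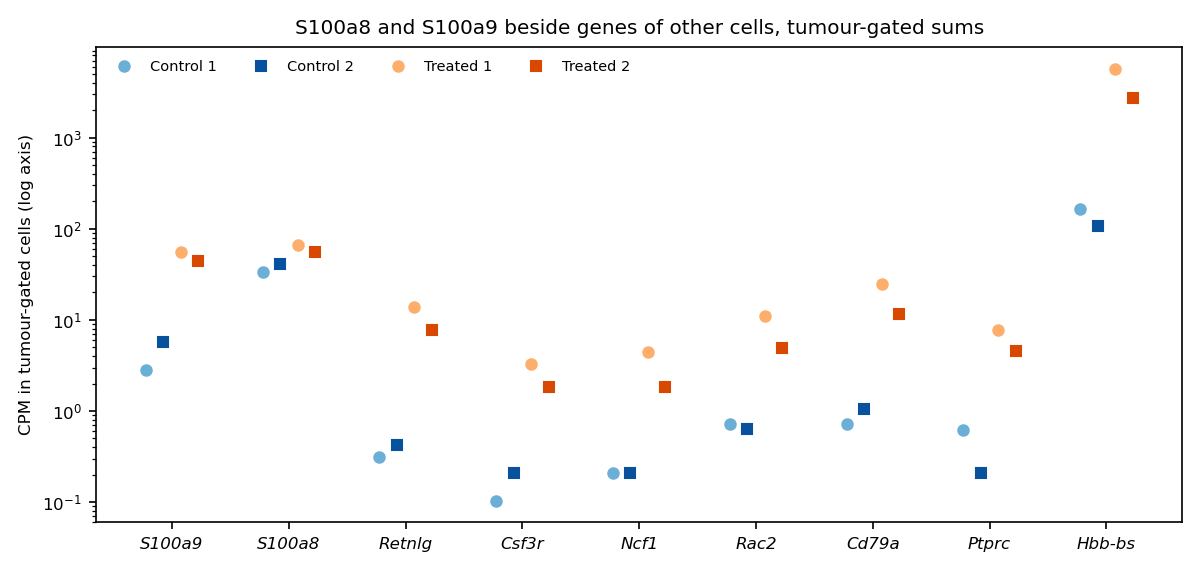
Level in tumor-gated cells (CPM, log axis) of S100a9 and S100a8 beside genes of other cells, 1 point per library. These are genes of neutrophils (Retnlg, Csf3r), of all immune classes (Ncf1, Rac2), of B cells (Cd79a), leukocytes (Ptprc) and red cells (Hbb-bs). Both treated libraries lie above both controls for each gene, by least for S100a8.

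The share of S100a9 in the UMIs of the calprotectin pair also differed between control and treated tumor cells. It was 7.63% (exact 95% interval 5.09 to 10.9) in Control 1, 12.4% (9.47 to 15.8) in Control 2, 45.7% (43.2 to 48.3) in Treated 1 and 44.9% (42.0 to 47.7) in Treated 2. In neutrophils of the same libraries it was 63.9%, 49.4%, 40.9% and 54.3%. Tumor cells of the controls thus held S100a8 with little S100a9, while in treated tumors both were near the neutrophil ratio, above it in Treated 1 and below it in Treated 2. Barcodes rich in hemoglobin had 56.7% and 61.9% in the treated libraries, and barcodes of no class 51.5% and 49.3%. For each 100 UMIs of S100a9 there were 24.9 and 17.2 UMIs of Retnlg in treated tumor cells, 69.9 and 43.8 in neutrophils and 17.4 and 28.9 in lymphoid cells of these libraries. Intervals cover counting error only.

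**Figure D5:**
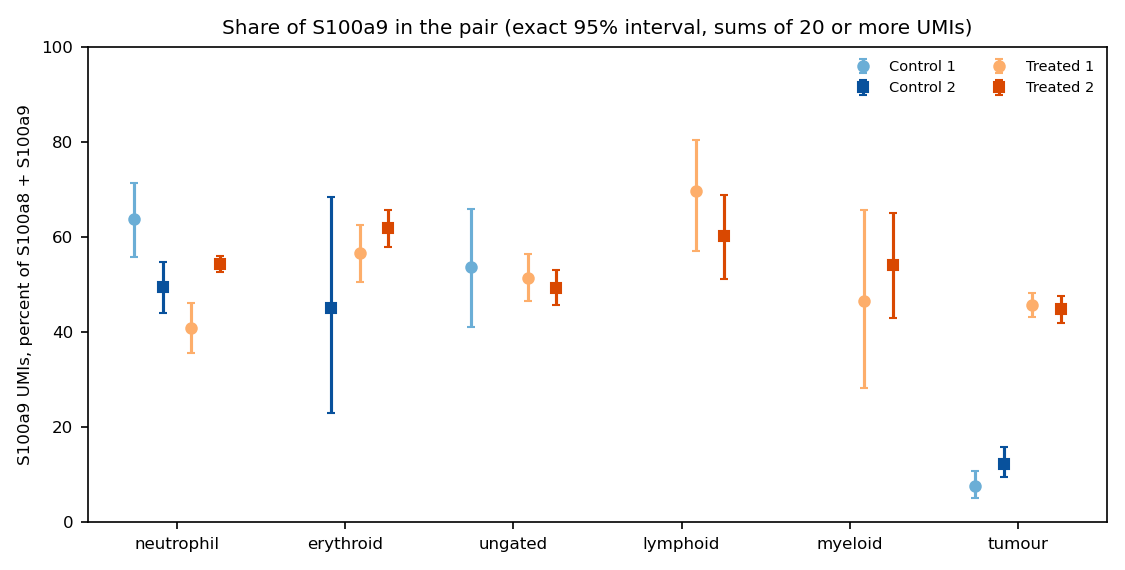
S100a9 UMIs as a percent of S100a8 and S100a9 UMIs (vertical axis) for each class and library with an exact 95% interval, where a sum held 20 or more UMIs of the pair. Tumor cells of Control 1 and Control 2 stand at 7.63% and 12.4%, and all other sums lie between 40.9% and 69.7%.

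S100a9 UMIs lay in 18 of 857, 24 of 534, 242 of 1284 and 172 of 581 tumor cells. S100a8 UMIs lay in 234, 212, 407 and 268 of them. The 1% of tumor cells richest in S100a9 held 63.0%, 65.5%, 37.7% and 41.4% of its UMIs, against 9.79%, 14.1%, 24.8% and 20.3% for S100a8. Fewer UMIs raise such a share by themselves, and the controls held 27 and 55 UMIs of S100a9 against 327 and 389 of S100a8. The genes are therefore not compared by the control shares. The treated sums were nearer, at 682 and 536 against 809 and 659 UMIs. A single tumor cell held up to 58 UMIs of S100a9 in Treated 1 and 73 in Treated 2, and 10 and 32 in the controls. Cells with UMIs of both genes numbered 5 of 857, 12 of 534, 105 of 1284 and 90 of 581.

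At equal depth the shares of tumor cells with an S100a9 UMI were 0 of 857 (which allows a share of up to 0.35%), 0.187%, 2.57% (exact interval 1.78 to 3.59) and 2.07% (1.07 to 3.58), and unthinned 2.1%, 4.49%, 18.8% and 29.6%. No cell was left out by thinning to 500 UMIs. Lymphoid cells, a class that should lack calprotectin, had 6.21% (3.02 to 11.1) and 6.45% (3.57 to 10.6) in the treated libraries after thinning, at median depths of 821 and 1230 UMIs before it against 8791 and 19792 in tumor cells. The tumor shares lay below these at equal depth, as the CPM did, so no expression of S100a9 by tumor cells is read from them. Unthinned, lymphoid cells had 9.32% and 11.1%, below the deeper tumor cells. The S100a8 shares in tumor cells were 1.17%, 2.25%, 2.8% and 2.24% at equal depth, against 2.48% (0.681 to 6.24) and 4.61% (2.23 to 8.31) in treated lymphoid cells. Unthinned they were 27.3%, 39.7%, 31.7% and 46.1% in tumor cells against 3.11% and 7.83% in treated lymphoid cells. The treated tumor shares at equal depth lay within or near the lymphoid intervals, so no order is read from them, and the 9 and 1 lymphoid cells of the controls were too few to give a level for the S100a8 of control tumor cells.

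In myeloid cells the member that rose with SP11 was S100a4. Its control sums stood at 284 and 443 CPM (11 and 14 UMIs) and its treated sums at 1085 and 1291 CPM (123 and 300 UMIs), and the groups did not overlap. The log2 fold change was 1.85 (SE 0.30, adjusted p 5.6e-06), a fold of 3.6. It was the 1 member called of the 6 that could be tested, where 10.2% of all genes were called. The share of myeloid cells with an S100a4 UMI at equal depth was 19.0% and 23.1% in controls, then 34.4% and 43.8% under SP11, with exact intervals that overlapped (5.45 to 41.9 in Control 1, 33.6 to 54.3 in Treated 2), and unthinned 33.3%, 38.5%, 62.2% and 76.0%. Tumor cells had 0.688% to 1.56% at equal depth.

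The makeup of the myeloid class moved with SP11 as well, with 8 and 9 monocyte-like cells to 12 and 3 macrophage-like cells in the controls and 48 and 77 to 34 and 16 in the treated libraries. S100a4 lay higher in treated than in control libraries in each subclass, at 518 and 582 against 1341 and 1365 CPM in monocyte-like cells and at 101 and 359 against 874 and 1120 CPM in macrophage-like cells. Hemoglobin made up 0.0284%, 0.0253%, 2.67% and 1.5% of the myeloid UMIs. The control sums of S100a4 rest on 9 and 11 UMIs in monocyte-like and on 2 and 3 UMIs in macrophage-like cells. SP11 was not tested within a subclass, and the part of makeup and hemoglobin in the rise of S100a4 was not tested. The S100a4 call was lost with a marker minimum of 5 UMIs (1.60, adjusted p 0.0532) and without the barcodes shared between libraries (1.42, adjusted p 0.0763).

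S100a9 and S100a1 had too few counts for the test in myeloid cells. Of the 70346 UMIs of control myeloid cells 0 were of S100a9, against 60 of 345755 in treated ones, which was 173.5 CPM and at least 4.07-fold higher than the limit of 42.6 CPM set by 3 counts over the control cells. Lymphoid cells of Treated 1 and Treated 2, which should lack S100a9, stood at 284 and 224 CPM. No expression of S100a9 by myeloid cells is therefore read from this difference. S100a8 (1.24, adjusted p 0.203), S100a11 (0.59), S100a13 (0.46), S100a10 (0.34) and S100a6 (0.02) did not pass. S100a6 stood at 4726 and 4617 CPM in the controls and at 4463 and 4312 CPM in the treated libraries.

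The SP11 effects in myeloid and tumor cells were tested against each other, and S100a4 was the 1 member of 8 whose effects differed, where 0.311% of all genes did. Its difference was 1.84 (SE 0.37, adjusted p 0.000468) on the log2 scale, against a median of 0.58 over all genes. With library sizes alone the difference was 1.32 (adjusted p 0.0266) against a median of 0.11, and with DESeq2 it was 1.54 (adjusted p 0.493) against -0.12. The other members did not pass, at 1.82 (S100a1), 1.01 (S100a8), 1.00 (S100a13), 0.96 (S100a11), 0.87 (S100a10) and 0.64 (S100a6), and S100a9, at 0 in control myeloid cells, gave no usable value. The S100a4 call was also lost without Control 1 (1.52, adjusted p 0.119), without Treated 2 (1.23, adjusted p 0.705), after thinning, at a marker minimum of 5 UMIs and without the shared barcodes (1.65, adjusted p 0.0621). The split of all calls was 21 higher and 14 lower, and 8 and 43 with library sizes alone.

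Over all kept cells of a library, S100a9 (2.91, SE 0.29, adjusted p 7.66e-07), S100a4 (1.67, SE 0.13, adjusted p 3.95e-08) and S100a8 (1.52, SE 0.23, adjusted p 9.81e-05) rose with SP11, 3 of 8 members where 10.7% of all genes were called. S100a9 stood at 16.6 and 25.1 CPM in the controls and at 96.3 and 258 CPM in the treated libraries. S100a8 stood at 42.8 and 61.1 against 105 and 231 CPM, and S100a4 at 20.9 and 20.7 against 71.5 and 75.5 CPM. The groups did not overlap for any of the 3 genes, and the call of S100a8 was lost with DESeq2 (adjusted p 0.0634). S100a11 (-0.12), S100a13 (-0.15), S100a1 (-0.16), S100a10 (-0.28) and S100a6 (-0.40, adjusted p 0.167) did not pass. More cells of a type and more RNA per cell cannot be told apart in these sums. Of the other S100 genes S100a14 was lower (-0.74, SE 0.18, adjusted p 0.00977).

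Where the UMIs lay differed between members. Tumor cells held 90.2% and 90.4% of S100a4 UMIs in Control 1 and Control 2 but 42.7% and 24.8% in Treated 1 and Treated 2, although they made up 70.1% and 53.3% of the kept barcodes there. Neutrophils held 61.1%, 73.3%, 11.4% and 58.1% of S100a9 UMIs, and in Treated 1, with 7 neutrophils, tumor cells held 54.5%. Neutrophils held 13.4%, 30.8%, 15.1% and 54.7% of S100a8 UMIs. Barcodes rich in hemoglobin carried S100a9 at 0, 1004, 1347 and 2392 CPM, together with neutrophil markers at 0, 223, 561 and 1080 CPM.

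The partners of the S100 proteins are given by class from a list of 22 genes (annexins, AHNAK, myosin, CacyBP, receptors and the NADPH oxidase), of which 18 could be tested between classes. In neutrophils 10 were higher and 4 lower than in tumor cells, in myeloid cells 13 and 5, and in lymphoid cells 9 and 6, where 26.8%, 60.5% and 53.6% of all genes were called in these comparisons. The cytosolic oxidase subunits, which bind calprotectin in phagocytes, were higher than in tumor cells in all 3 immune classes. Ncf1 had 7.19 (SE 0.73) in neutrophils, 6.48 in myeloid and 4.72 in lymphoid cells, Ncf4 had 6.44 (SE 0.74), 6.60 and 5.92, and the GTPase Rac2 had 7.1 (SE 0.45), 5.4 and 6.73. Between neutrophils and myeloid cells Rac2 was higher in neutrophils (1.71, adjusted p 0.000411), while Ncf1 (0.72, adjusted p 0.497) and Ncf4 (-0.16, adjusted p 0.881) did not pass. Cybb, the catalytic subunit, was lower in neutrophils than in myeloid cells (-4.71, SE 0.89). Of the calprotectin receptors Tlr4 (4.56, SE 1.64, adjusted p 0.0248) and its co-receptor Cd14 (6.60, SE 0.64) were higher in neutrophils than in tumor cells, and Bsg (-1.70, SE 0.51) was lower. The median of all genes in that comparison was -1.49.

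Anxa2, the partner of S100a10, was lower than in tumor cells in all 3 immune classes, at -1.86 (SE 0.29) in neutrophils, -1.52 (SE 0.14) in myeloid and -3.33 (SE 0.21) in lymphoid cells. In tumor cells it stood at 3225, 2868, 2935 and 2757 CPM, and in neutrophils at 1776, 1586, 2457 and 1250 CPM. Against tumor cells the medians of all genes were -1.49 in neutrophils, -0.17 in myeloid and -0.11 in lymphoid cells. S100a10 itself was called lower in neutrophils and myeloid cells. Ahnak, the large scaffold that binds S100a10 with annexin A2, was lower in neutrophils (-3.08, SE 0.73) and higher in myeloid cells (1.17, SE 0.19). Myh9, the myosin that S100a4 binds, was higher in neutrophils (2.15), myeloid (1.21) and lymphoid cells (1.12). Cacybp, the partner of S100a6, was lower in neutrophils (-2.94), myeloid (-1.04) and lymphoid cells (-1.13).

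With SP11, 8 of 19 partners tested in tumor cells rose and none fell, where 2.1% of all genes were called and 1.58% were higher. Among them were Ncf1 (3.74), Ncf4 (3.17), Cybb (2.37), Cyba (1.77), Rac2 (3.42), Anxa6 (4.23) and Myh9 (0.80). Ncf1 stood at 0.207 and 0.211 CPM in the controls and at 4.48 and 1.83 CPM in the treated libraries, and Rac2 at 0.725, 0.632, 10.99 and 4.92 CPM. The oxidase genes among them were higher than in tumor cells in lymphoid as well as in myeloid cells, Rac2 by 6.73 and 5.4. They moved in the tumor sums together with S100a9 and with the leukocyte genes given above. The source of their UMIs in the tumor sums was not tested. In myeloid cells, where 10.2% of all genes were called, 4 of 14 rose, Ncf1 (2.88), Ahnak (2.49, SE 0.34, adjusted p 7.63e-08), Myh9 (1.88) and Cybb (1.01). Ahnak stood at 232 and 190 CPM in the controls and at 1005 and 1205 CPM in the treated libraries, and its effect differed from that in tumor cells by 2.42 (SE 0.39, adjusted p 1.03e-06).

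The genes whose level over the 11 class sums was most like that of each member were found by Pearson's r of log2(CPM + 1), as a description over sums that share 4 libraries. For S100a9 they were Retnlg (0.966), Ash1l (0.959) and Gm49041 (0.958), and for S100a8 Zfp652 (0.968), Ngp (0.964) and Camp (0.962), where Retnlg, Ngp and Camp are neutrophil genes. For S100a4 they were Cd180 (0.985), Adam10 (0.982) and Rassf4 (0.979). For S100a6 they were Dgcr6 (0.972), Timm8a1 (0.967) and the keratin Krt19 (0.965). S100a10 was most like Dpm1 (0.991), Rpl7l1 (0.989) and Impdh2 (0.989), and S100a11 most like Klra17 (0.963), Rufy4 (0.954) and Fermt2 (0.921). S100a1 was most like Rras (0.906), Tmed10 (0.901) and Serpinb6a (0.884), and S100a13 most like Shisa5 (0.973), H2-Q7 (0.968) and Ms4a6b (0.966). Only 1 of the 11 sums was of neutrophils. Retnlg and Krt19 were among the markers that chose the neutrophil and the tumor class. The rule itself shaped their levels over the sums, so nothing is read from their likeness to S100a9 and S100a6.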

How the data were processed

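Per the file headers, the deposited UMI counts of genes by cell barcode came from Cell Ranger 7.1.0, 1 matrix a library. The sample labels name mm10, the methods hg38. The counts carry no normalization. The 8 members and all gene lists were chosen with earlier results of these data known. Kept barcodes had at least 200 genes and at most 10% mitochondrial UMIs. Barcodes with at least 25% hemoglobin UMIs were set aside. A class needed at least 3 UMIs from at least 2 of its marker genes and 2/3 of the UMIs on all 4 marker lists. Called doublets (47, 46, 17 and 16, Scrublet in scanpy 1.11.5) were kept. UMIs were summed per library and class, sums of at least 10 cells were tested with edgeR 4.0.16 (quasi-likelihood, TMM, filterByExpr, Benjamini-Hochberg over all genes tested, threshold 0.05) in R 4.3.3. Class comparisons had the library as a block, comparisons of SP11 with control (2 against 2) had none. The labels do not say that libraries came from separate animals, so p-values measure the spread between these libraries only. Shares were computed after thinning each cell to 500 UMIs, with exact Clopper-Pearson intervals. All 8 members were named in every comparison, partners and other S100 genes where called, and the 3 most similar genes by Pearson's r. DESeq2 1.42.0, other filters, marker limits, scalings and left-out libraries were tried. The fits were tested on simulated data.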

Additional observations from a re-analysis of the deposited data

Results flagged for a closer look

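The effect of SP11 on S100a4 differed between myeloid and tumor cells by 1.84 on the log2 scale, in a test of the difference itself (edgeR, adjusted p 0.000468). S100a4 stood at 284 and 443 CPM in control and at 1085 and 1291 CPM in treated myeloid cells, and at 19.0, 18.8, 32.3 and 20.3 CPM in tumor cells. The control myeloid sums rest on 11 and 14 UMIs of S100a4. The call was kept in 11 of 17 alternatives, and the median difference over all genes was 0.58.

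Barcodes with under 200 detected genes, which no comparison used, held 52 UMIs of S100a8 in Treated 1 and 24 in Treated 2, and 97 and 26 UMIs of S100a9, while the 12 and 1 such barcodes of Control 1 and Control 2 held none of either gene. There were 433 and 380 such barcodes in Treated 1 and Treated 2. In all they held 392815 and 582278 UMIs, against 13433 and 1241 in the controls. No difference between the groups is read from so few control UMIs. Hemoglobin made up 80.6%, 87.8%, 88.4% and 89.4% of the UMIs of these barcodes, with the controls first. In Treated 1 S100a9 was 65.1% of the pair (exact 95% interval 56.9 to 72.7) and in Treated 2 it was 52.0% (37.4 to 66.3).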

How the results depend on the processing

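Of 1525 recomputed values, 1455 kept their direction and their side of the threshold (72 of these, uncalled in both fits, changed sign), 46 lost a call, 19 gained one and 5 were reversed. The reversed values were S100a4 in neutrophils against tumor cells with sums of at least 1 cell (2.66), S100a11 in the same comparison and S100a6 in neutrophils against myeloid cells with at least 500 genes (-0.17 and -0.63), S100a8 in lymphoid against tumor cells with 9/10 of the marker UMIs (-0.28), and S100a9 in mitotic-high against mitotic-low cells without the tumor cells richest in immune UMIs (-0.91). The cause was not tested. The last alternative and the one without barcodes shared between libraries were chosen after seeing the data.

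The number of members called was 4 for lymphoid against tumor cells after thinning. It was 1 for B against T or NK cells with at least 500 genes, 9/10 of the marker UMIs, DESeq2 or sums of at least 1 cell. For SP11 in tumor cells it was 2 with 5 marker UMIs, library sizes alone or the replicate block. For SP11 in myeloid cells it was 2 with 2 marker UMIs or no filter and 0 with 5 marker UMIs or without shared barcodes. For the difference of these effects it was 3 with 2 marker UMIs, 2 after thinning, and 0 with 5 marker UMIs, with DESeq2 or without shared barcodes. Unthinned, the S100a9 shares of tumor cells were 2.1%, 4.49%, 18.8% and 29.6%.

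Leaving out 1 library at a time, 4 to 7 members were called for myeloid against tumor cells, 3 to 8 for lymphoid against tumor cells, 1 to 3 for SP11 in tumor cells, 1 to 2 in myeloid cells and 0 to 1 for the difference. Without Treated 2 no neutrophil sum held 10 cells and the neutrophil comparisons gave no value.

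The replicate block used numbers that name 2 pairs only. Same-numbered libraries deviated together at r 0.176 in tumor cells, 0.083 in myeloid cells and 0.121 over all kept cells, and nothing in the labels makes them pairs. The methods mention 2 sets, each independent, of control and treated samples, but do not say which libraries form a set. With the block 2, 1 and 4 members were called for SP11 in tumor cells, in myeloid cells and over all kept cells, and S100a8 in tumor cells gained its call (0.56, adjusted p 3.49e-05), as did S100a6 over all kept cells (-0.40, adjusted p 0.0181). With the block, calls over all genes moved from 243 to 947 in tumor cells, from 119 to 34 in myeloid cells and from 1305 to 2220 over all kept cells.

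Calls over all genes moved by over 1.5 times elsewhere too. In tumor cells SP11 gave 427 with library sizes alone, 129 with DESeq2, 146 with no filter, 18 after thinning, 422 without Control 1 and 387 without Treated 2. In myeloid cells the other alternatives beyond this limit gave 22 to 78, and over all kept cells DESeq2 gave 759. For the difference of the effects they gave 14 to 73 against 35. Myeloid against tumor cells had 3886 calls and then 1482 to 2166, lymphoid against tumor cells 3440 and then 1060 to 1396, in both with sums of at least 1 cell, after thinning and without Treated 2. Neutrophil against myeloid cells had 424 and then 193 to 222, monocyte-like against macrophage-like cells 14 and then 4 to 27, B against T or NK cells 278 and then 72 to 151, and mitotic-high against mitotic-low cells 2448 and 985 with DESeq2.

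The limits are few neutrophils, shallow immune cells and 2 libraries a group. Neutrophil UMIs of S100a1 and S100a13 numbered 0 to 7 per library, and neither gene passed the test in neutrophils against tumor or myeloid cells in any alternative run.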
